A study of Mus musculus with 6 samples.

Results

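The NF-κB subunits and their feedback inhibitors were followed through collagen-induced arthritis in the mouse. The 10 genes were chosen by symbol, with every probe of each: the subunits Nfkb1, Nfkb2, Rel, Rela and Relb, and the inhibitors Nfkbia, Nfkbib, Nfkbie, Tnfaip3 and Bcl3. Of the 16593 genes named on the array, 9 were among these 10, with 10 probes in all, because no probe was named for Nfkb1. A probe was tested where its signal stood above background, a detection p under 0.05, on at least 2 of the 6 arrays. This held for 9 probes of 8 genes, and Nfkb2 was not tested.

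All samples were total RNA of synovial tissue from around the ankles of male DBA/1 mice, a strain in which immunization against collagen readily brings on arthritis. Aged 6 to 8 weeks, they were injected at the tail base with complete Freund's adjuvant holding 100 µg of type II collagen from cattle. A booster followed after 2 weeks in the footpad of 1 hind foot, which was not sampled. Tissue taken 6, 9 and 15 weeks after immunization stands for induction, peak and resolution in the series' own terms, with 2 arrays at each week. RNA came from pooled tissue with a mean RNA integrity number of 9.5. Whether the arrays of 1 week held separate pools is not stated in the labels, so the spread behind the p-values is that between arrays and may be technical. No unimmunized mice were analysed here. In bulk tissue, fewer cells of a type and less RNA per cell cannot be told apart.

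NF-κB is a family of dimeric transcription factors. In resting cells the dimers are held in the cytoplasm by IκB proteins, which the IκB kinase marks for destruction when cytokines such as TNF and IL-1 or microbial products bind their receptors. Released dimers enter the nucleus and switch on cytokines, chemokines and adhesion molecules, and also the genes of their own inhibitors, which end the response. The pathway is active in inflamed synovium of human rheumatoid arthritis and of mouse models of it. Among the 10 genes, Nfkbia, Nfkbie, Tnfaip3 and Bcl3 are known as NF-κB-induced feedback genes, Nfkb1, Nfkb2, Rel and Relb as subunits that NF-κB itself can induce, and Rela and Nfkbib as genes with largely constitutive transcription.

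The promoters of 4 members are shown because they carry the contrast of feedback against constitutive genes. Each is RefSeq sequence of the mouse build GRCm38.p6, 5′ to 3′ along the gene's strand, from 250 bases before the annotated start to 50 after it. Capitals mark matches to the κB consensus, the sequence that NF-κB dimers bind, searched on both strands. Nfkbia lies at chr12:55492598-55492897 on the minus strand, Tnfaip3 at chr10:19015361-19015660 on the minus strand, Rel at chr11:23770920-23771219 on the minus strand and Rela at chr19:5637291-5637590 on the plus strand.
Nfkbia: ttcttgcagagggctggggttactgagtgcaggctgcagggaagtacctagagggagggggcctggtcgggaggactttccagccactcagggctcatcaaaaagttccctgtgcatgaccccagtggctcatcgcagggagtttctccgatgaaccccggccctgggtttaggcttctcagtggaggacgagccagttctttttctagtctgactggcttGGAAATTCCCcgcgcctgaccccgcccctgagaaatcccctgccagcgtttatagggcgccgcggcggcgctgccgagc
Tnfaip3: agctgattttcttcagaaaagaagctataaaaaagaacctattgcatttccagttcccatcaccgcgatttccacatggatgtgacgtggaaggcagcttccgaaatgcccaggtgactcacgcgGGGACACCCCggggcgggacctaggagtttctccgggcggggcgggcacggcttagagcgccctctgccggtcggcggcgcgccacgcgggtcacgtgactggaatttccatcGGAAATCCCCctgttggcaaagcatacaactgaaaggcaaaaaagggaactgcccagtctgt
Rel: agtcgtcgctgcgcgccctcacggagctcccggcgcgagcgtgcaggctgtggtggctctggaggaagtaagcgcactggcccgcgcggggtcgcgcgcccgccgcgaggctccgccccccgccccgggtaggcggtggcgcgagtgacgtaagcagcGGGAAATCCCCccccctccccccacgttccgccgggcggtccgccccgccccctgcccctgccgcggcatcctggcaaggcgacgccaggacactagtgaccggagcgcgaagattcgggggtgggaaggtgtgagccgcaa
Rela: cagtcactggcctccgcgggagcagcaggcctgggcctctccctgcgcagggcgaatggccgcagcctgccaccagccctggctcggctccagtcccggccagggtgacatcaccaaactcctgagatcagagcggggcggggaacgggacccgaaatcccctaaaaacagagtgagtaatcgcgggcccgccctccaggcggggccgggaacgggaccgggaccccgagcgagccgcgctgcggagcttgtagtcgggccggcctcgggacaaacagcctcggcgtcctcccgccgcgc

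The Nfkbia match began 29 bases before the start, and the Tnfaip3 matches began 125 and 12 bases before it. The capitals in Rel are 2 overlapping matches that began 92 and 91 bases before the start. The Rela window held none, and neither did a second annotated Tnfaip3 start. RefSeq windows were given for 8 of the 10 members, 11 windows in all, and none for Nfkb1 and Relb. A match was present in 6 of the 8, Nfkb2, Rel, Nfkbia, Nfkbie, Tnfaip3 and Bcl3, and in neither Rela nor Nfkbib. Of all genes with a window, 5.14% (1388 of 27025) held a match. A match describes letters and not a bound site, and its absence says only that these letters are not in this window.

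Both arrays of week 15 stood apart from the rest, in different ways. On the first, 9 of 10 skeletal muscle markers were above background, with a median log2 signal of 8.77 and a summed signal of 11840, against 2 to 4 markers, medians of 4.51 to 4.67 and sums of 288.8 to 385.0 on the other 5 arrays. The second was the dimmest, with a median raw intensity of 99.07 against 123.1 to 129.5. The pair correlated across features at r = 0.9753, against 0.9913 at week 6 and 0.9911 at week 9. The first week 15 array was closer to both week 6 arrays (0.9825 and 0.9844) and both week 9 arrays (0.978 and 0.9783) than to its own replicate. Every comparison with week 15 rests on this pair. The tissue also carried strong lymphocyte signal, with B cell marker medians of 11.21 to 11.93 and T cell marker medians of 10.46 to 10.91 on every array. Synovial fibroblast markers were above background for 7 or 8 of the 10 on the array, and Prg4, the lubricin gene of lining cells, had no named probe. Macrophage markers, 7 of 8 above background on each array, summed to 28870 to 29650 at week 6 and 18410 to 21660 later. The part of these in the results below was not tested.

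No member passed the adjusted threshold of 0.05 in any comparison of weeks, by limma's two-sided moderated test with Benjamini-Hochberg adjustment over 10167 features. Adjusted p-values of the 8 tested members ran from 0.405 to 0.961 between weeks 6 and 9, from 0.0937 to 0.621 between weeks 9 and 15 and from 0.208 to 0.995 between weeks 6 and 15. Over all features 0.354% passed between weeks 6 and 9, 1.19% between weeks 9 and 15 and 0.0492% between weeks 6 and 15. At an unadjusted p under 0.05 the members numbered 0 of 8, 2 of 8 and 2 of 8 in that order, beside 16%, 23.2% and 14.4% of all features. Both members were Tnfaip3 and Rel, each at its highest level at week 15. The F test over the 3 weeks gave Tnfaip3 an adjusted p of 0.14, Rel 0.158 and the other members 0.376 to 0.698, with 0.62% of all features past the threshold. Each week enters 2 of the 3 comparisons, so these share arrays.

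**Figure D1:**
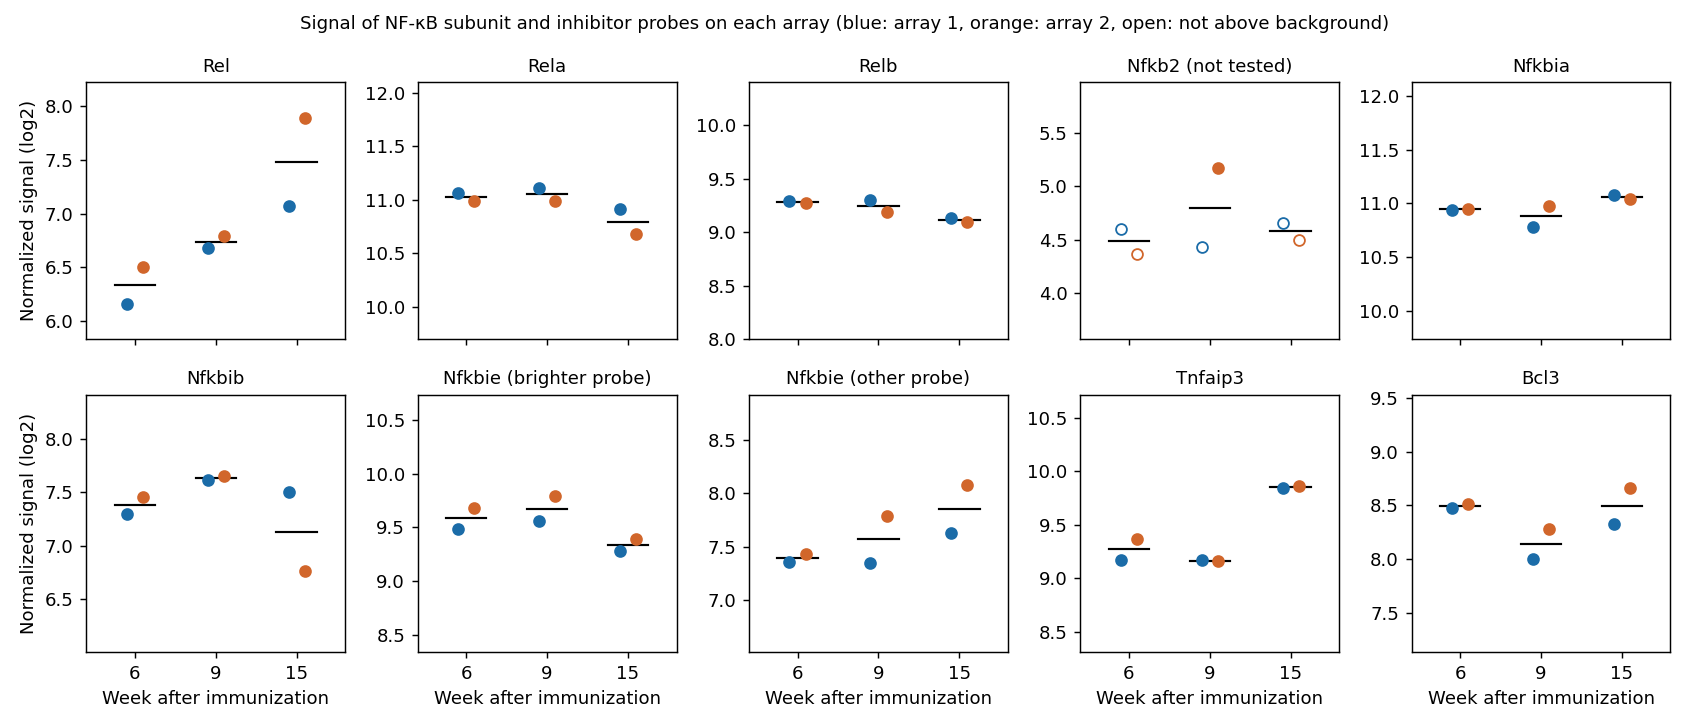
Normalized signal (log2) of each member's probe on every array, by week after immunization, with array 1 in blue, array 2 in orange, the week's mean as a bar and open points for signals not above background. Panels span equal ranges of log2 at different heights. Tnfaip3 sat at 9.84 and 9.86 on the week 15 arrays and between 9.16 and 9.37 on the other 4, and Rel was highest on both week 15 arrays but far apart between them.

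Among the subunits, Rel encodes c-Rel, a transactivating subunit of lymphocytes and myeloid cells that NF-κB can itself induce. Its log2 signal was 6.16 and 6.50 at week 6, 6.68 and 6.79 at week 9, and 7.07 and 7.89 at week 15. The 3 weeks did not overlap, and the week 15 arrays lay further apart than those of either other week. Raw Rel intensities at week 15 were close, 224.1 and 234.2, beside background means of 107.9 and 86.88. The wider gap appeared only after background correction and normalization. Week 15 exceeded week 6 by 1.15 ± 0.28 (SE) on the log2 scale, 2.21-fold with a 95% interval of 1.39 to 3.53 and an adjusted p of 0.208. From week 9 to week 15 it was 0.74 ± 0.28, with an interval of 0.07 to 1.42 and an adjusted p of 0.184. The neighbours week 6 and week 9 differed by 0.40, interval -0.27 to 1.08. The dim second week 15 array decided the size. Without it the difference from week 9 was 0.33 (adjusted p = 0.389) and from week 6 0.73 (0.296). Without the muscle-bearing first array these were 1.16 (0.0272) and 1.56 (0.0262), both past the threshold, with the lone week 15 array assumed to vary like the other groups. In that setting 19.7% of all features passed between weeks 9 and 15 and 9.96% between weeks 6 and 15. Rel's size also depended on the background correction, ranging from 0.05 to 0.78 between weeks 9 and 15 over 6 other backgrounds and scalings. The 0.05 came with every control row as background set, and the next lowest, 0.35, with the authors' processed values.

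Rela encodes the main transactivating subunit of the canonical pathway and is transcribed in most cells. On the arrays it read 11.06 and 10.99 at week 6, 11.11 and 10.99 at week 9, and 10.91 and 10.68 at week 15. The first 2 weeks overlapped, and both week 15 arrays lay below them. The difference from week 9 to week 15 was -0.25, with a 95% interval of -0.65 to 0.14 and an adjusted p of 0.385. Week 9 minus week 6 was 0.02, interval -0.37 to 0.42.

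Relb encodes the transactivating partner in the non-canonical pathway. The arrays gave 9.29 and 9.27 at week 6, 9.30 and 9.19 at week 9, and 9.13 and 9.10 at week 15. Weeks 6 and 9 overlapped, with both week 15 arrays below. The week 15 level differed from week 9 by -0.13, interval -0.50 to 0.23, and from week 6 by -0.16, interval -0.53 to 0.20. The upper ends of these intervals are levels 1.18-fold those of week 9 and 1.15-fold those of week 6.

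Nfkb2 encodes the precursor of Relb's usual partner. Signals of 4.60 and 4.37 at week 6, 4.43 and 5.17 at week 9, and 4.66 and 4.50 at week 15 were measured. Only the second week 9 array was above background, so no fold is given.

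Tnfaip3, an inhibitor that edits ubiquitin chains on signalling proteins upstream of the IκB kinase, stood closest to the threshold. Its log2 signal was 9.17 and 9.37 at week 6, 9.17 and 9.16 at week 9, and 9.84 and 9.86 at week 15. Both week 15 arrays lay above all 4 others and within 0.02 of each other, while weeks 6 and 9 overlapped. From week 9 to week 15 the difference was 0.68 ± 0.16 (SE) on the log2 scale, 1.61-fold with a 95% interval of 1.23 to 2.09. The unadjusted p was 0.0038, rank 411 among 10167 features, and the adjusted p from limma was 0.0937. From week 6 to week 15 the difference was 0.58 ± 0.16, 1.50-fold with an interval of 1.15 to 1.95 and an adjusted p of 0.221. Weeks 6 and 9 differed by -0.10, interval -0.48 to 0.28.

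Before normalization, the Tnfaip3 intensity was 983.2 and 671.7 on the week 15 arrays, against 716.8 to 773.2 on those of weeks 6 and 9. The dim second week 15 array thus read lowest of all before normalization and highest after it. Arrays were left out in the main normalization only. Within it, the size of the Tnfaip3 difference did not rest on either week 15 array. It was 0.69 from week 9 without the muscle-bearing array (adjusted p = 0.0423, where 19.7% of all features passed) and 0.67 without the dim one (0.124). Its side of the threshold depended on the background correction. It passed in 3 of 6 other backgrounds and scalings, at 0.61 with no background correction (adjusted p = 0.0364), 0.65 with a larger offset (0.048) and 0.57 in the authors' processed values (0.0357). It did not pass with every control row as background set (0.28, adjusted p = 0.0568), with cyclic loess (0.72, adjusted p = 0.071) or with median scaling (0.24, adjusted p = 0.469). Median scaling moved the median of all features between weeks 9 and 15 to -0.35, from -0.08 in the main setting. Relative to that median the Tnfaip3 difference was 0.58 with median scaling and 0.77 in the main setting.

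Nfkbia encodes IκBα, the inhibitor that is degraded and resynthesized fastest and the classic NF-κB feedback target. Log2 signals were 10.94 and 10.95 at week 6, 10.78 and 10.98 at week 9, and 11.08 and 11.04 at week 15. Both week 15 arrays were highest, by a margin below the gap between the week 9 arrays. The difference from week 9 to week 15 was 0.19, with a 95% interval of -0.19 to 0.57 and an adjusted p of 0.498. That interval holds no change and a rise of up to 1.48-fold, and its direction turned to -0.27 with median scaling. Relative to the median of all features, at -0.35 there, it remained above.

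Nfkbie encodes IκBε, a further inhibitor with delayed induction. Its 2 probes went different ways at week 15. The probe that stood for the gene, ILMN_2690551, gave 9.49 and 9.68 at week 6, 9.56 and 9.79 at week 9, and 9.28 and 9.39 at week 15. The other, ILMN_1238752, gave 7.36 and 7.43 at week 6, 7.35 and 7.79 at week 9, and 7.63 and 8.08 at week 15. On the first, both week 15 arrays were lowest, and on the other both were above week 6 and overlapped week 9. Week 15 minus week 6 was, for these probes, -0.25 (interval -0.67 to 0.17) and 0.46 (interval -0.07 to 1.00), with adjusted p-values of 0.553 and 0.407 in the fit of single probes. In that fit 0.521%, 2.4% and 0.0367% of 13633 probes passed between weeks 6 and 9, 9 and 15 and 6 and 15, and none of the members' 9 probes did. No direction is given for Nfkbie.

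Bcl3 encodes an atypical IκB protein that binds subunits in the nucleus and can repress or activate. Log2 signals were 8.48 and 8.51 at week 6, 8.00 and 8.28 at week 9, and 8.33 and 8.66 at week 15. It was the one inhibitor with both week 9 arrays below all others. The difference from week 6 to week 9 was -0.35, interval -0.80 to 0.10, and from week 9 to week 15 it was 0.35, interval -0.10 to 0.80, with adjusted p-values of 0.405 and 0.301. Week 15 differed from week 6 by 0.00, interval -0.45 to 0.45.

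Nfkbib encodes IκBβ, which is resynthesized slowly. On the arrays it read 7.30 and 7.45 at week 6, 7.61 and 7.65 at week 9, and 7.50 and 6.76 at week 15. Only the dim second week 15 array was below week 6. The difference from week 9 to week 15 was -0.50, interval -1.09 to 0.09, adjusted p 0.27. It was -0.87 (adjusted p = 0.0292) without the first week 15 array, where 19.7% of all features passed, and -0.13 (0.654) without the second.

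**Figure D2:**
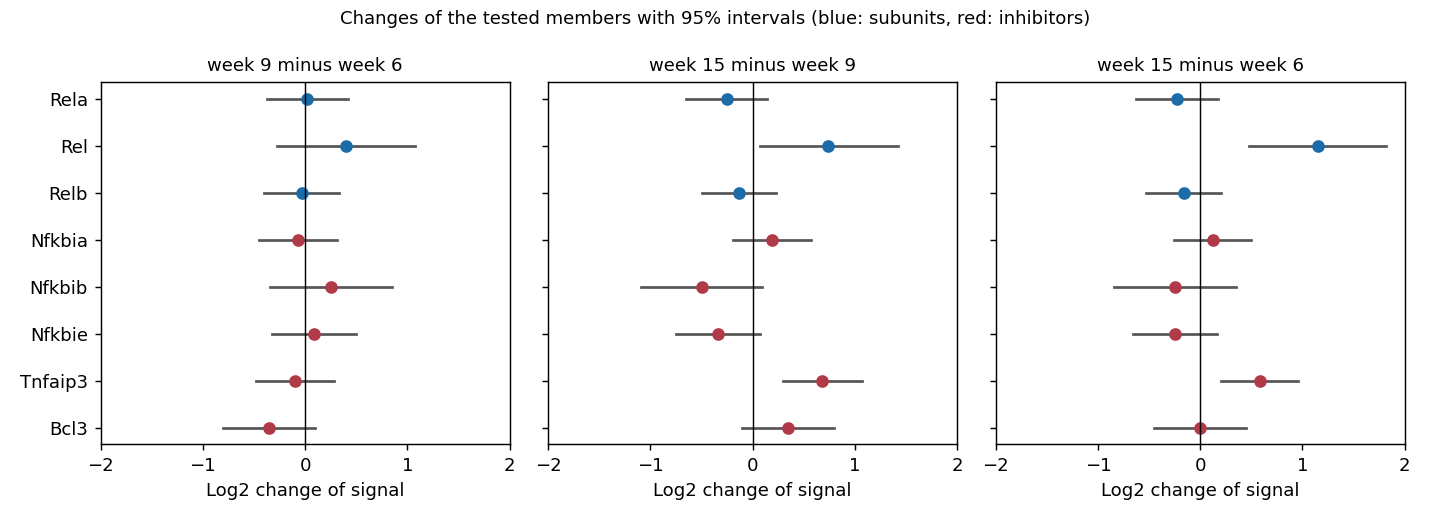
Log2 change of each tested member in the 3 comparisons of weeks, subunits in blue and inhibitors in red, with 95% intervals from limma. Intervals that leave out 0 are those of Tnfaip3 and Rel in both comparisons with week 15, where no adjusted p passed the threshold.

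Counting groups that did not overlap, 2 of 8 members were higher at week 9 than at week 6, Rel and Nfkbib, and 1 was lower, Bcl3, beside 32.6% and 25.6% of all features. From week 9 to week 15, 4 of 8 were higher, Rel, Nfkbia, Tnfaip3 and Bcl3, and the other 4 were lower, beside 22.7% and 32.2% of all features. From week 6 to week 15, 3 of 8 were higher, Rel, Nfkbia and Tnfaip3, and 3 were lower, Rela, Relb and Nfkbie, beside 19.7% and 24.3%. Nfkbie is counted here by its brighter probe. By its other probe, a choice made after its values were seen, the counts were 4 higher and 3 lower from week 9 to week 15 and 4 higher and 2 lower from week 6 to week 15. The median difference of the 8 members was 0.00, 0.03 and -0.08 on the log2 scale in these comparisons, and that of all features was 0.04, -0.08 and -0.02.

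Set against each other, the 5 inhibitors and the 3 tested subunits parted most between weeks 9 and 15. There the median log2 difference was 0.19 for the inhibitors and -0.13 for the subunits. From week 6 to week 9 the medians were -0.07 and 0.02, and from week 6 to week 15 they were 0.00 and -0.16. The gap of 0.32 between weeks 9 and 15 stands beside an SD of 0.11 between replicate arrays. That SD is of a related quantity, the median log2 signal of the inhibitors minus that of the subunits on each array. It is not the spread of the gap itself, which was 0.09 with every control row as background set. The gap has no p, because the members were chosen together. Without the first week 9 array the gap was 0.16, and without the second 0.47. With Nfkbie taken by its other probe the gap was 0.42 between weeks 9 and 15 and 0.28 between weeks 6 and 15, against 0.16 in the latter by its brighter probe. Rel is the subunit that goes against the split, at 0.74, and Nfkbib and the Nfkbie probe are the inhibitors that do, at -0.50 and -0.34.

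A sorting by known regulation was added after the members' values were seen. It regroups Rel and Nfkbib, which went against the split above, so its medians describe these values and test nothing. The 4 feedback genes had a median of 0.27 between weeks 9 and 15, the inducible subunits Rel and Relb 0.31, and the constitutive pair Rela and Nfkbib -0.38. From week 6 to week 15 the medians were 0.06, 0.49 and -0.24. The dim second week 15 array set much of these values. Without the first week 15 array the medians between weeks 9 and 15 were 0.34, 0.51 and -0.62, and without the second 0.20, 0.11 and -0.14. From week 6 to week 15 they were 0.13, 0.69 and -0.48 without the first, and -0.01, 0.29 and 0.00 without the second. By Nfkbie's other probe the feedback genes' median was 0.32 between weeks 9 and 15 and 0.29 between weeks 6 and 15. Measured within each array against the week 6 mean, the difference of Tnfaip3 minus Rela was -0.14 and 0.14 at week 6, -0.19 and -0.07 at week 9, and 0.69 and 0.93 at week 15. Rel minus Rela was -0.21 and 0.21 at week 6, 0.26 and 0.50 at week 9, and 0.85 and 1.90 at week 15. Nfkbia minus Rela was -0.04 and 0.04, then -0.26 and 0.07, and then 0.25 and 0.44. On both week 15 arrays these 3 differences lay above all arrays of the other weeks. Rela, which enters all 3, was itself lowest on both week 15 arrays, and Nfkbib was not used as a reference. Of single features, 22.7% were higher at week 15 than at week 9 without overlap, and 19.7% than at week 6. No such share was computed for pairs. For Bcl3 minus Rela week 15 overlapped week 6, and for Nfkbie minus Rela it overlapped both other weeks.

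The other genes of the pathway were taken from 3 lists. Of 26 genes of the IκB kinase and its upstream signalling, 19 had a tested probe, and limma called 0 in any comparison. At an unadjusted p under 0.05 there were 1, 4 and 2 of 19, beside 16%, 23.2% and 14.4% of all features. The list's median log2 differences were 0.01, 0.01 and 0.06. The smallest p was that of Rnf31, the catalytic subunit of the linear ubiquitin ligase that activates the kinase. Its log2 signal was 7.89 and 7.84 at week 6, 8.32 and 8.57 at week 9, and 7.62 and 7.46 at week 15, highest on both week 9 arrays with no overlap between weeks. Its difference from week 9 to week 15 was -0.90 ± 0.17, adjusted p 0.062. Map3k8, a kinase held by the Nfkb1 precursor, differed by 0.85 over the same interval, adjusted p 0.141. Map3k7, which activates the IκB kinase, differed by 0.59, adjusted p 0.24. It was above background on both week 15 arrays, on 1 of 2 at week 9 and on neither at week 6.

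Of 21 other regulators and feedback genes, 18 were tested and limma called 0 in any comparison. At an unadjusted p under 0.05 there were 0, 5 and 2 of 18, beside 16%, 23.2% and 14.4% of all features. The list's medians were -0.11, 0.19 and 0.08. Nfkbiz, an NF-κB-induced nuclear IκB protein, had log2 signals of 9.44 and 9.41 at week 6, 9.10 and 8.94 at week 9, and 9.53 and 10.09 at week 15. It was lowest on both week 9 arrays and highest on both week 15 arrays, with 0.79 between weeks 9 and 15, adjusted p 0.114. Tnip2, a partner of Tnfaip3, differed by -0.64, adjusted p 0.104. Nfkbil1, an IκB-like protein, was not well above background on either week 15 array and at least 1.48-fold lower there than at week 9, adjusted p 0.105.

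Among 32 inflammatory NF-κB target genes, 23 were tested. From week 6 to week 9, 2 fell and 0 rose, from week 9 to week 15, 1 rose and 0 fell, and from week 6 to week 15, 1 rose and 0 fell, beside the 0.354%, 1.19% and 0.0492% of all features that passed. At an unadjusted p under 0.05 there were 8, 7 and 9 of 23, beside 16%, 23.2% and 14.4% of all features. Their medians were -0.32, 0.31 and -0.17. Plau, the urokinase protease, had log2 signals of 7.28 and 6.90 at week 6, 4.97 and 4.56 at week 9, and 6.56 and 6.59 at week 15. It was not well above background on either week 9 array, which made it at least 3.95-fold lower than at week 6 (adjusted p = 0.0262) and at least 2.76-fold lower than at week 15 (adjusted p = 0.0236). Vcam1, an adhesion molecule for leukocytes, fell by 1.47 from week 6 to week 9 (adjusted p = 0.0483). Macrophage, synovial fibroblast and endothelial markers had medians of -0.74, -0.63 and -0.34 in that comparison and of -0.78, -0.81 and -0.70 from week 6 to week 15. Limma called 0 of the 7, 8 and 7 tested in either, with 6, 4 and 3 at an unadjusted p under 0.05 in the first and 5, 6 and 4 in the second. Their part in the levels of the target genes was not tested. Ccl3, a chemokine of macrophages and other leukocytes, rose by 2.91 from week 6 to week 15 (adjusted p = 0.0386), from 6.52 and 6.25 through 7.70 and 8.19 to 9.66 and 8.94. Leaving out 1 array of weeks 6 or 9 ended each of these calls in the comparisons it entered, at adjusted p-values of 0.151 to 0.227 for Plau from week 6 to week 9, 0.174 to 0.215 for Plau from week 9 to week 15, 0.223 to 0.505 for Vcam1 and 0.187 to 0.322 for Ccl3. Plau from week 9 to week 15 also missed the threshold without the second week 15 array, at 0.0605, and without either week 6 array, at 0.0711, and Ccl3 did without either week 9 array, at 0.0907. With every control row as background set all 4 calls were lost, at 0.141 to 0.338. Vcam1 also missed with median scaling (0.104), no filter on dim probes (0.0579) and the mean of probes (0.0502), Ccl3 with no filter (0.0615) and array weights (0.0547), and Plau from week 9 to week 15 with array weights (0.0619). With only the weeks compared in the fit, Plau from week 9 to week 15 was at 0.0711 and Ccl3 at 0.0907.

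The cytokines that start the pathway were named after their values were seen. Tnf differed by 0.14, 0.42 and 0.56 in the 3 comparisons, with adjusted p-values of 0.774, 0.273 and 0.304. Il1b had log2 signals of 9.29 and 9.11 at week 6, 8.62 and 8.62 at week 9, and 9.35 and 9.70 at week 15. It was lowest at week 9, like Nfkbiz and Bcl3, with 0.90 between weeks 9 and 15 and an adjusted p of 0.0762. Icam1, an adhesion molecule and NF-κB target, differed by -0.16, -0.03 and -0.19, with adjusted p-values of 0.718, 0.929 and 0.671.

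**Figure D3:**
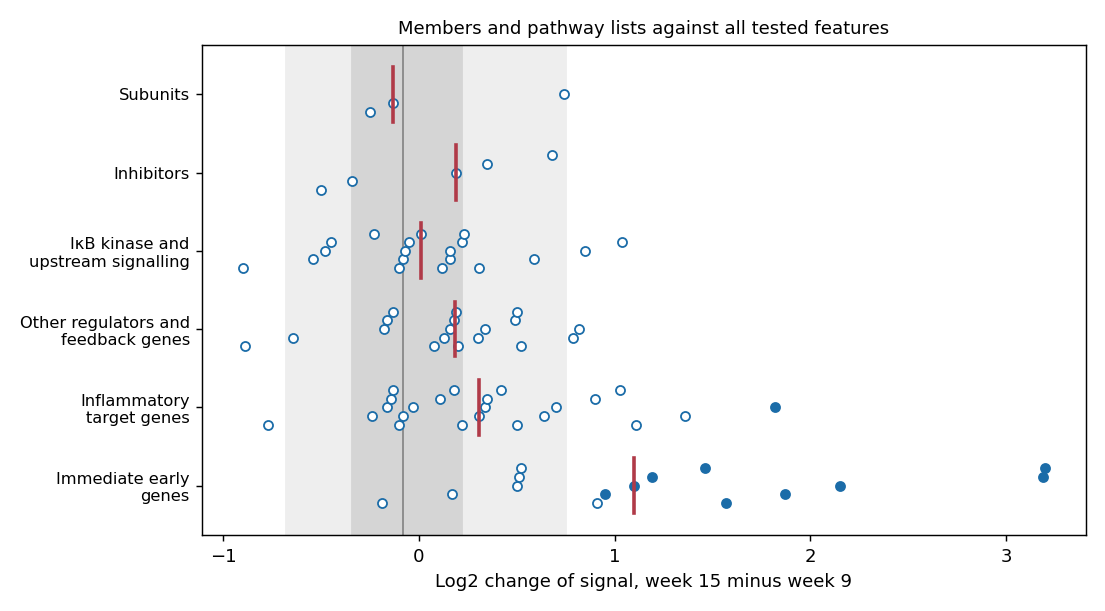
Log2 change from week 9 to week 15 of each tested gene of the subunits, the inhibitors, the 3 pathway lists and the immediate early genes. Filled points passed the adjusted threshold, red bars are list medians, the grey line is the median of all features at -0.08, the dark band holds their 25 to 75% range of -0.34 to 0.22 and the light band their 5 to 95% range of -0.68 to 0.75. Tnfaip3 and Rel, at 0.68 and 0.74, lie near the upper edge of the light band.

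Immediate early genes, which many stimuli switch on within minutes, moved over the same weeks. Of 20, 15 were tested. In the 3 comparisons 1, 9 and 3 rose and 0 fell, beside the 0.354%, 1.19% and 0.0492% of all features that passed. The list's medians were 0.41, 1.10 and 1.31, and those of all features were 0.04, -0.08 and -0.02. Fos, which pairs with Jun proteins to bind DNA, had log2 signals of 7.70 and 7.45 at week 6, 9.77 and 10.63 at week 9, and 13.55 and 13.26 at week 15. Its rise from week 9 to week 15 was 3.20 ± 0.29, adjusted p 0.0153. From week 6 to week 15 it was 5.83, adjusted p 0.000946, and 0.0891 with every control row as background set. Dusp1, a phosphatase that ends MAP kinase signalling, had 9.04 and 9.16, then 9.72 and 10.02, and then 12.28 and 11.75. It rose by 2.15 from week 9 to week 15, adjusted p 0.019. With only weeks 9 and 15 in the fit, adjusted p-values were 0.0649 for Fos and 0.0711 for Dusp1. Both missed the threshold in that comparison without either week 9 array, at 0.0794 to 0.245, or without either week 6 array, at 0.0649 and 0.0711, and Dusp1 with every control row as background set, at 0.0712. The summed signal of the list was 14580 to 14690 at week 6, 18040 to 21640 at week 9 and 43550 to 52700 at week 15. Tnfaip3 and Rel were highest at week 15 as this list was. The part of this list's rise in the members' levels was not tested.

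**Figure D4:**
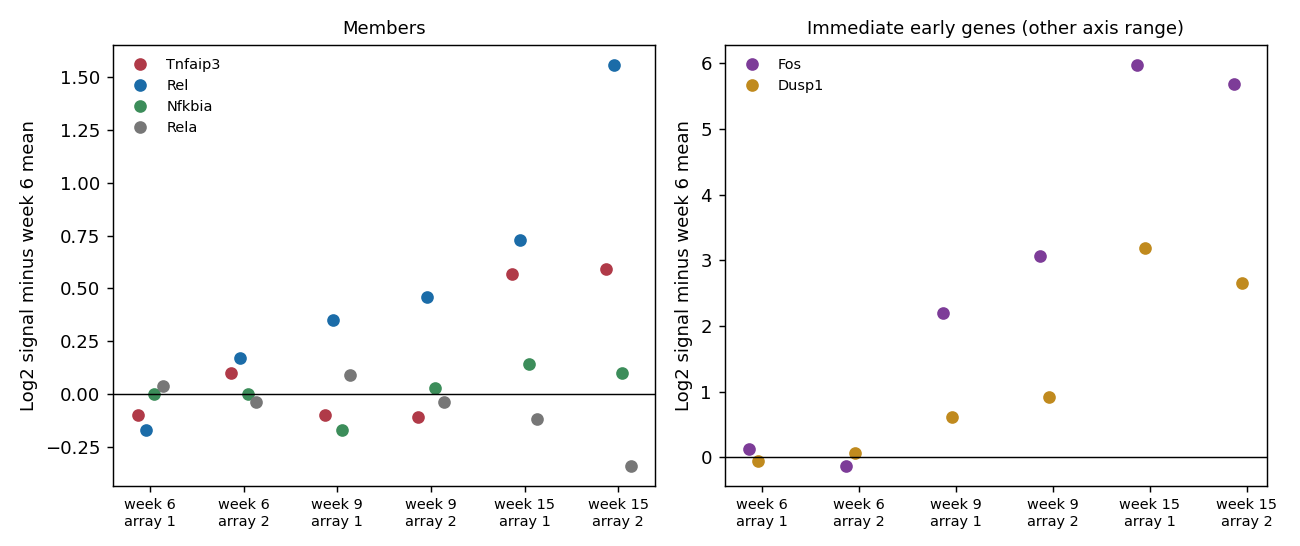
Log2 signal on each array minus the week 6 mean, for 4 members (left) and 2 immediate early genes (right, on another axis range). On the week 15 arrays Fos stood 5.98 and 5.68 above its week 6 mean, while Nfkbia lay 0.14 and 0.10 above and Rela 0.12 and 0.34 below theirs.

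As a description of shape, the features most like Nfkbia over the 6 arrays, among 9179 that varied at least as much as Nfkbia's SD divided by 2, were Ugp2 (Pearson r = 0.977), Cldn9 (0.971), Spag5 (0.971), Acadsb (0.970) and Cnih1 (0.965). Of those 9179 features 0.567%, 52 in all, had an r over 0.9. The same measure for Tnfaip3, added after its values were seen, put the immediate early gene Atf3 first at 0.995, followed by Prps1 and Id2 at 0.991, with 2.64% of 7499 features over 0.9. For Rel it put Fyn first at 0.988, with 2.75% of 3751 features over 0.9. The points are 6 arrays in 3 weeks normalized together, and no p is given.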

How the data were processed

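Total RNA of synovial tissue was hybridised to 6 bead arrays. The deposited table holds 1 linear intensity per probe and array, per the file headers. The authors' processed log2 values of the same arrays served as an alternative. For neither do the sources used here state a normalization. Another 2 columns of per-sample values matched no sample and were not used.

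Of 26821 rows, 1124 had no probe ID and were taken as controls. After 13 bright ones were removed, 1111 served as background set. A detection p was the share of these at or above a probe's signal. Intensities were corrected with neqc of limma 3.58.1 in R 4.3.3 (offset 16, quantile, log2), which left 13633 tested probes. The probe of highest mean stood for its gene, giving 10167 features, 9360 of them with a symbol. A single limma fit over all 6 arrays had 3 residual and 4.02 prior degrees of freedom. It was tested on simulated data. For a fold written as at least, the dim group took, per array, the lowest detected signal or its own where that was higher. Fold changes are on the offset scale, which understates the change of low genes. The number of arrays limits the precision, and no batch, slide or scan date was given.

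Members and lists were chosen with earlier results of these data known. Beyond the members, genes were named by a rule: those past 0.05 in a list (at most 6) and the 3 with the smallest F p, except where stated; Fosb, Klf4, Junb, Jund and Adipoq, also named by it, are left to the closing section. Alternatives covered background, scaling, probe filter and choice, fit, replicate block and each array left out.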

Additional observations from a re-analysis of the deposited data

How the results depend on the processing

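Over all alternatives, 133 counts and group values stayed near the main value and 100 moved. Of the single-gene values, 590 kept their side of the threshold without turning direction. Another 16 turned direction, 7 passed the threshold newly and 87 lost it. The main setting called 36 genes between weeks 6 and 9, 121 between weeks 9 and 15, 5 between weeks 6 and 15 and 63 by the F test, and 71, 327 and 5 probes. The causes were not tested. With no background correction these were 69, 355, 29 and 201 genes and 129, 748 and 30 probes. With the larger offset they were 83, 275, 44 and 190 genes and 132, 667 and 49 probes. With every control row as background set they were 0, 43 and, by F, 10 genes and 0 and 61 probes. With cyclic loess they were 98, 199, 26 and 154 genes and 181, 504 and 18 probes. Median scaling gave 30 genes between weeks 6 and 15, and 959 probes between weeks 9 and 15 and 28 between weeks 6 and 15. It moved the median of all features to 0.17, -0.35 and -0.18, from 0.04, -0.08 and -0.02. The authors' values gave 329, 15 and 95 genes between weeks 9 and 15, between weeks 6 and 15 and by F, and 585 and 16 probes in those 2 comparisons. Using the mean of tested probes gave 8 genes between weeks 6 and 15, and detection on all arrays 8 probes. Fitting only the weeks compared gave 171 genes and 274 probes between weeks 6 and 9 and 3 of each between weeks 9 and 15. Array weights gave 635 and 31 genes, 237 by F, and 914 and 105 probes.

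The share of calls that were higher between weeks 9 and 15 was 81.8% in the main setting, 87.9% with cyclic loess, 40.3% with median scaling, 68.7% with no background correction, 66.9% in the authors' values and 67.4% with every control row. Between weeks 6 and 15 it was 100% in the main setting, 50% with cyclic loess and 30% with median scaling.

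With the replicate block, calls were 8 genes and 7 probes between weeks 6 and 9, 34 genes and 192 probes between weeks 9 and 15, 4 genes between weeks 6 and 15 and 9 by F, and 0 members throughout. Adjusted p-values of genes that lost their call under it were 0.0569 for Vcam1 and for Fos between weeks 6 and 9, 0.074 for Ccl3 between weeks 6 and 15, and 0.052, 0.0717 and 0.0604 for Klf4, Junb and Jund between weeks 9 and 15. Same-numbered arrays deviated together at r = -0.039, 0.154 and -0.0823 across genes. Each value rests on a single difference between arrays per week, so a shared pool or batch cannot be told from it. The labels give these arrays a shared number and no more.

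With 1 array left out, genes called ranged from 0 to 171 between weeks 6 and 9, 0 to 1999 between weeks 9 and 15, 3 to 1013 between weeks 6 and 15 and 3 to 1638 by F, and probes from 0 to 274, 0 to 2563 and 3 to 1027. The highest counts from week 15 and by F were all without the first week 15 array. Members called ranged from 0 to 3 between weeks 9 and 15 (Rel, Tnfaip3 and Nfkbib without the first week 15 array) and 0 to 1 between weeks 6 and 15 (Rel). The member called once each with no background correction, the larger offset and the authors' values was Tnfaip3. The gap between inhibitors and subunits ranged from -0.19 to 0.07 between weeks 6 and 9, 0.16 to 0.47 between weeks 9 and 15 and 0.14 to 0.28 between weeks 6 and 15. It was -0.24 and 0.03 in the first and last with no filter on dim probes, where Nfkb2 enters, and 0.09 between weeks 9 and 15 with every control row.

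These directions of members turned. With median scaling they were Bcl3 -0.03 and Nfkbia -0.27 between weeks 9 and 15, Nfkbia -0.09 between weeks 6 and 15, and Nfkbia 0.18, Relb 0.21 and Tnfaip3 0.13 between weeks 6 and 9. Rela was -0.02 with cyclic loess between weeks 6 and 9, and Nfkbie 0.11 with the mean of its probes between weeks 6 and 15. By its other probe, an alternative chosen after seeing the data, Nfkbie was 0.29 between weeks 9 and 15 and 0.46 between weeks 6 and 15, and the gap between inhibitors and subunits in the latter was 0.28. With 1 array left out, the ranges between weeks 6 and 9 were -0.17 to 0.03 for Nfkbia, -0.02 to 0.21 for Nfkbie, -0.09 to 0.02 for Relb and -0.04 to 0.09 for Rela, with Rela at -0.01 too, and that of Nfkbib between weeks 6 and 15 was -0.61 to 0.12. Tnfaip3 between weeks 9 and 15 ranged from 0.24 to 0.72 over 18 alternatives and passed in 4 of them.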

Other observations

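Other immediate early genes rose from week 9 to week 15 by limma. Fosb, a partner of Jun proteins, rose by 3.19 on the log2 scale (adjusted p = 0.00897), Klf4, a zinc finger factor, by 1.87 (0.039), Junb by 1.19 (0.0406) and Jund by 1.46 (0.0406). Without either week 9 array all 4 missed the threshold, at 0.0794 to 0.297, and Klf4, Junb and Jund also did without either week 6 array, at 0.114, or without the second week 15 array, at 0.0748 to 0.0902. These 3 were also lost with array weights, at 0.0712 to 0.104, and with only the weeks compared in the fit, at 0.114. Junb and Jund missed with median scaling (0.0819 and 0.053), and Klf4 and Jund with every control row as background set (0.167 and 0.0543). Klf4 was above background on 1 of 2 week 9 arrays. Zfp36, an mRNA-destabilizing protein that limits TNF and was chosen after its values were seen, differed by 0.75, 0.50 and 1.25 in the 3 comparisons, with adjusted p-values of 0.181, 0.205 and 0.0935.

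Adipoq, the adipocyte hormone adiponectin, fell by 2.72 from week 6 to week 9 (adjusted p = 0.0262), a call lost without any 1 of those 4 arrays (0.187 to 0.295) and with every control row as background set (0.125). The summed signal of the adipocyte markers went from 2439 to 2635 at week 6 to 711.2 to 731.8 at week 9, and at week 15 it was 1643 on the first array and 653.5 on the second. Neutrophil markers summed to 6737 to 10150 at week 6, 5761 to 6177 at week 9 and 4644 to 4893 at week 15. Of the 9 tested, 0 passed the adjusted threshold in any comparison. At an unadjusted p under 0.05 there were 3, 6 and 7, beside 16%, 23.2% and 14.4% of all features.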
